A study of Mus musculus with 8 samples.

Results

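The 35 genes described here encode the glucose and lactate carriers, the enzymes of glycolysis with their fructose 2,6-bisphosphate regulators, the enzymes that decide the fate of pyruvate, the enzymes of the pentose phosphate pathway, and the transcription factor Hif1a. They were taken by name from the 25247 genes of one count table, and all 35 were found, each with 1 identifier. The table holds bulk RNA sequencing of epidermal dendritic cells known as Langerhans cells, from ear skin of C57BL/6 mice that were either wild type (WT) or EZH2 -/- (KO). Ezh2 is the catalytic subunit of Polycomb repressive complex 2, which places the repressive histone H3 lysine 27 methyl mark. Live cells were sorted from dispase-separated epidermis as DAPI- CD45+ Ly6G- CD103- MHCII+ CD24+ EpCAM+. The labels give no age, no Cre driver and no deleted part of the gene, nor whether each library was made from its own animals. The p-values below therefore rest on the variation among these libraries, part or all of which may be technical.

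Glycolysis splits glucose into pyruvate in the cytosol and yields ATP without oxygen. Pyruvate then either enters mitochondria through the pyruvate dehydrogenase complex or is reduced to lactate, which leaves the cell through monocarboxylate carriers. The pentose phosphate pathway branches off at glucose 6-phosphate and supplies NADPH and ribose. Hif1a encodes the oxygen-regulated subunit of the HIF-1 factor, for which many glycolytic genes are known targets, and activated dendritic cells are known for raised glycolysis.

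The genotype of 4 of the 8 libraries differs between 2 fields of the labels. RMN030 and RMN031 were WT and RMN038 and RMN039 KO by both fields. RMN032 and RMN033 were KO by title and WT by description, and RMN036 and RMN037 were WT by title and KO by description. Fitted genotype differences are therefore given in 3 readings, with none preferred and, where a value names no reading, in this order: the undisputed libraries (2 WT against 2 KO), the title codes (4 against 4) and the description codes (4 against 4). In the undisputed libraries and by description codes, all WT libraries have codes from the run RMN030 to RMN033 and all KO libraries from the run RMN036 to RMN039, so that genotype and code run cannot be told apart. The title codes put 2 libraries of each genotype in each run.

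Library totals ranged from 11051402 to 18966195 counts. Cd207, which encodes langerin, was at 9706 to 11963 CPM, that is, counts scaled to the total of each library. Ezh2 was at 15.7, 22.4, 15.2 and 14.9 CPM in RMN030 to RMN033 and at 19.0, 17.6, 12.7 and 10.5 CPM in RMN036 to RMN039, and reads outside the deleted part, which is not given, would check nothing. RMN030 and RMN031 stood apart in T cell markers, with 316 and 287 CPM summed over 11 genes against 44.3 to 59.9 CPM in the other libraries, and Cd3e, Cd3g, Cd3d, Cd8a and Lat were at 0 in at least 1 library. All later-run libraries stood above all earlier-run libraries in summed markers of red blood cells (585 to 1358 against 123 to 227 CPM, 6 genes), macrophages and monocytes (155 to 201 against 54.6 to 94.6 CPM, 7 genes), fibroblasts and endothelium (122 to 200.1 against 37.99 to 65.0 CPM, 8 genes) and mast cells (45.9 to 66.4 against 31.1 to 43.2 CPM, 6 genes). The 9 keratinocyte markers summed to 11976 to 15400 CPM in every library despite the sort. Of the neutrophil markers, the 5 in the table summed to at most 3.29 CPM.

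The 35 genes spanned the range from among the most abundant transcripts to barely detected ones. Compared as CPM per kilobase of exon (median of 8 libraries), the highest were Aldoa, the aldolase that cleaves fructose 1,6-bisphosphate, at 254, Ldha, the lactate dehydrogenase subunit that favours lactate formation, at 197, and Pkm, pyruvate kinase, at 196. These ranked 187, 252 and 246 by mean level among all genes of the table. Gapdh followed at 117, then Pgam1 at 92.8, Eno1 at 89.0, Tpi1 at 81.1, Pgk1 at 70.4 and Gpi1 at 56.5. The first pair of neighbours, Aldoa and Ldha, did not overlap between libraries (233 to 286 against 168 to 207), whereas Ldha and Pkm (165 to 213) did, as did Pgam1 (85.7 to 100.5), Eno1 (74.8 to 99.1) and Tpi1 (69.6 to 95.8). Among the steps from glucose 6-phosphate isomerase to lactate dehydrogenase, phosphofructokinase had the lowest leading gene, Pfkp, at 21.1. Of the 7 pentose phosphate genes, Taldo1 (transaldolase, 48.4) and Tkt (transketolase, 42.6), both of the non-oxidative branch, were the highest. The oxidative enzymes G6pdx, Pgd and Pgls stood at 16.5, 8.30 and 5.77. At the low end were Hk3 at 0.43, Eno2, the neuronal enolase, at 0.21 and Rpia, ribose 5-phosphate isomerase, at 0.15. Hif1a was at 27.2. These levels depend on the length used. With the longest coding transcript in place of all exons, the same 3 genes were highest, as Aldoa at 478, Pkm at 403 and Ldha at 359.6 CPM per kilobase. Below them the order changed, with Gapdh at 341, Eno1 at 236, Tpi1 at 139, Gpi1 at 127, Pgam1 at 104, Pgk1 at 86.5 and Pfkp at 68.4. The oxidative enzymes came out in another order as well, with Pgd at 24.1, Pgls at 20.5 and G6pdx at 19.2, again below Tkt (97.1) and Taldo1 (77.1).

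**Figure D1:**
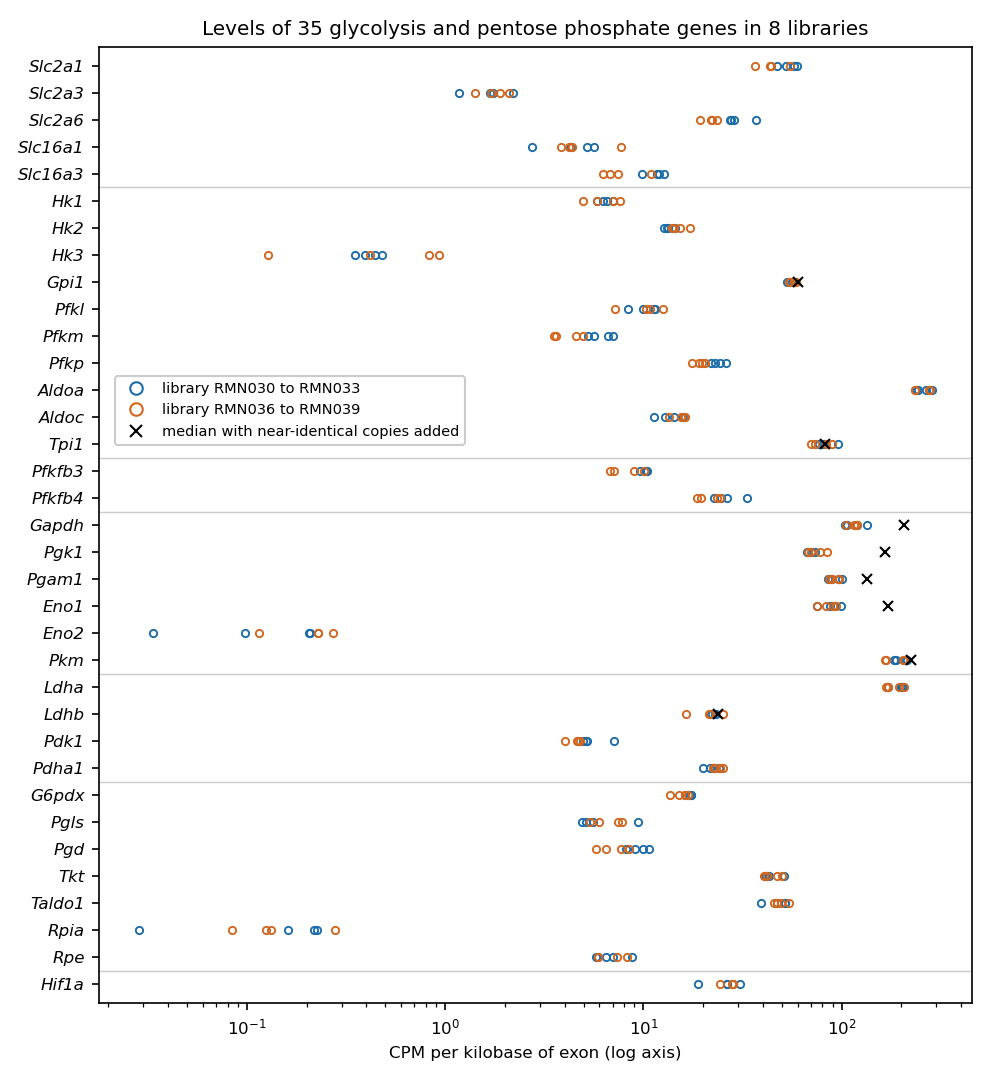
Levels of the 35 genes in CPM per kilobase of exon on a log axis, one row per gene grouped by role, with one circle per library coloured by code run and a cross for the median once counts of near-identical copies are added (drawn where this moves the median by over 1%). Aldoa, Ldha and Pkm lie highest, Hk3, Eno2 and Rpia lowest, and the crosses of Gapdh, Pgk1, Pgam1 and Eno1 lie well to the right of the circles.

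Several of the most abundant members have near-identical copies elsewhere in the genome, mostly processed pseudogenes, which also received counts. Copies were taken as genes whose transcripts align to the member over at least 300 bases at 95% identity or more. Pgk1, phosphoglycerate kinase, had 2 copies whose summed counts were 131.5% of its own, from 126 to 136% in a library. The 3 copies of Eno1, the main enolase, held 91.9% of its own counts, the 71 copies of Gapdh 75.5%, the single copy of Pgam1 44.7% and the single copy of Pkm 14.4%. For Ldhb, Gpi1, Tpi1 and Ldha, the share was 6.47%, 6.01%, 1.43% and 0.377%. The 3 pairs of stretches below show how alike gene and copy are. Each is 90 bases of coding sequence within 1 exon, read 5′ to 3′ on the gene's strand from the GENCODE transcripts of GRCm38, with bases that differ in capitals, and each copy is the processed pseudogene with most counts.
Gapdh: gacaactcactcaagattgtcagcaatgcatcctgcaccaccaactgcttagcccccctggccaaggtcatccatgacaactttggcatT
Gm12033: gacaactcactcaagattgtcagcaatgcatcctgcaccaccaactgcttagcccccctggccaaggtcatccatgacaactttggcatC
Eno1: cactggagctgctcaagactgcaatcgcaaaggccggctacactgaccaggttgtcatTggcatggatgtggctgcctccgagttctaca
Gm4735: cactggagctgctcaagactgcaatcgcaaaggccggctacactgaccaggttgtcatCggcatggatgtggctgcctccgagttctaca
Pkm: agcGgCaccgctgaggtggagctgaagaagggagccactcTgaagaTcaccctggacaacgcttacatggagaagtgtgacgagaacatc
Gm6560: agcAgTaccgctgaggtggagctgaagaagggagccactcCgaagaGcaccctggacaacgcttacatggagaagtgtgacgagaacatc
Gapdh (chr6:125162858-125162947, minus strand, exon 4) and Gm12033 (chr11:20335510-20335599, minus strand) had 1 mismatch over 1002 positions. Eno1 (chr4:150246570-150246659, plus strand, exon 8) and Gm4735 (chr2:80837808-80837897, plus strand) had 5 over 1302. Pkm (chr9:59668913-59669002, plus strand, exon 5) and Gm6560 (chr5:22725701-22725790, minus strand) had 24 over 1593, the stretch shown being the one with most differences. A read that covers no differing base matches gene and copy equally and cannot be assigned by sequence, whereas a read across a difference can. How such reads were counted is not given in the sources used here, so the levels of these genes are uncertain. With the copies' counts added, the medians became 206 for Gapdh, 171 for Eno1, 165 for Pgk1, 134 for Pgam1 and 225 for Pkm CPM per kilobase. The order of the lower glycolytic enzymes changed. Some copies with counts matched the gene at every aligned base, among them Pgk1-rs7 and Pgam1-ps2. The Gapdh copies Gm7336, Gm14760 and Gm12671 held nearly equal counts in each library, with totals of 3697, 3688 and 3675. Other Gapdh copies differed, such as Gm12033 with 6447. If a read was counted at more than 1 locus, the medians with copies count it repeatedly and are too high, which was not tested.

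**Figure D2:**
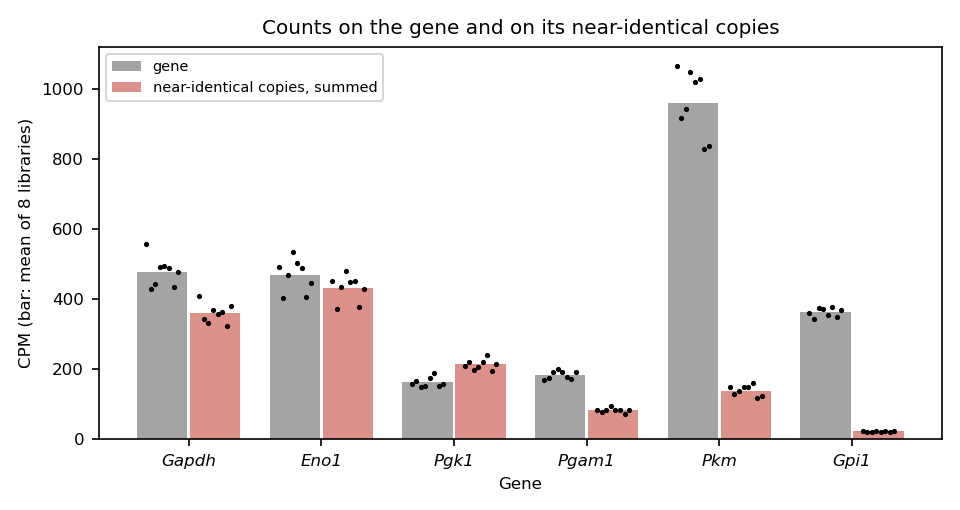
CPM of 6 glycolytic genes (grey) and of all their near-identical copies summed (red), with bars for the mean of 8 libraries starting at 0 and one dot per library. For Pgk1 the copies exceed the gene, for Eno1 they nearly equal it, and for Gpi1 they are a small part of it.

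Where an enzyme has several isozymes, one of the listed genes held most of their sum in every library, and the leading gene was the same in all 8 libraries. By reads per kilobase over the listed genes, Aldoa made up 94.7% ± 0.553 of aldolase (SD, n = 8), Eno1 99.8% ± 0.105 of enolase, and Ldha 89.6% ± 1.25 of lactate dehydrogenase. Pfkfb4, one of the bifunctional enzymes that set the level of fructose 2,6-bisphosphate, made up 72.2% ± 3.47 against Pfkfb3. Slc2a1, the glucose carrier GLUT1, made up 64.2% ± 2.89 of the 3 listed carriers, with Slc2a6 at 33.5% ± 3.13 and Slc2a3 at 2.29% ± 0.472. Slc16a3, the carrier MCT4 known for lactate export, held 66.7% ± 7.88 against Slc16a1 (MCT1), from 82.3% in RMN030 to 58.7% in RMN037, the widest range of the 8 families. Hk2 led the listed hexokinases with 67.5% ± 2.92, and Pfkp, the platelet-type phosphofructokinase, led with 58.3% ± 3.35 over Pfkl (27.8%) and Pfkm (13.9%). The shares depend on the length used: with the longest coding transcript in place of all exons, Hk2 fell to 53.8% and Pfkp was 74.1%, with the same leading genes on average.

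**Figure D3:**
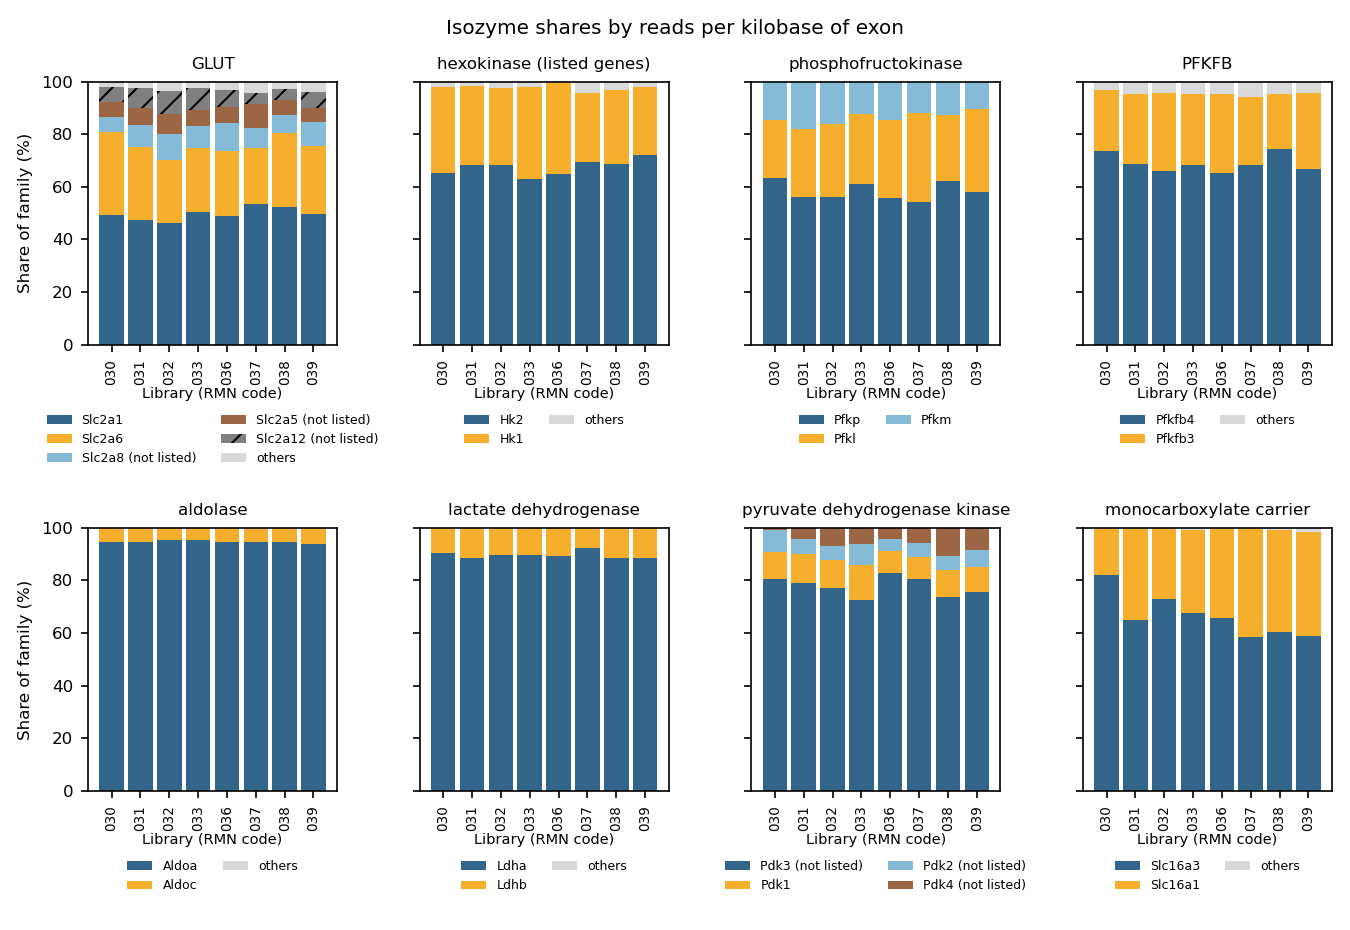
Share of each family by library (x axis, library code; y axis, percent of reads per kilobase of exon), with the hexokinases limited to the 35 listed genes, genes outside the list marked as not listed in the other panels, and genes under a mean of 5% merged as others. Hk2 leads the listed hexokinases and Pdk3 the pyruvate dehydrogenase kinases, and the share of Slc16a3 ranges from 82.0% to 58.4%.

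For some families, members outside the 35 were counted as well. They come from the pathway lists and are singled out after their values were seen. Among pyruvate dehydrogenase kinases, which switch off pyruvate oxidation, Pdk3, which is not among the 35, held 77.7% ± 3.65 and the listed Pdk1 10.3% ± 1.59. Slc2a1 still led the 9 carriers of the SLC2 family found among the 35 genes and the pathway lists, at 49.7% ± 2.43. Slc2a6 followed at 26.0% ± 3.12. Over 4 enolases, Eno1 held 95.1% ± 1.80, and Eno3, which is not among the 35, held 4.72% ± 1.77, above the listed Eno2 at 0.195%. Bsg (basigin), the chaperone that MCT1 and MCT4 need at the membrane, was at 179.7 to 216 CPM.

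None of the 35 genes passed the test for genotype in any reading. Fits were made over all genes with edgeR's quasi-likelihood test, and a gene was called at a Benjamini-Hochberg adjusted p under 0.05. With the undisputed libraries, the call was made for 0 of the 34 members tested, where 0.794% of all 14727 genes tested were (117 genes); Rpia was too low to be tested. By title codes, 0 of 35 were called, where 0% of 14630 genes were. By description codes, 0 of 35 were called, where 2.02% were (296 genes). At an unadjusted p under 0.05, edgeR gave 3 members (Slc16a3, Pfkm, Slc2a6) where 11.3% of all genes passed, 1 member (Tkt) where 4.59% passed, and 5 members (Slc2a6, Pfkp, Slc16a3, Pfkm, Pgd) where 12.6% passed. DESeq2 called 0, 0 and 1 member, where it called 293, 24 and 704 genes in all. The 1 member was Slc2a6 by description codes (DESeq2 adjusted p = 0.0375). At an unadjusted p under 0.05, DESeq2 gave 4, 1 and 6 members, with no share over all genes to set beside them. In these bulk samples, fewer cells of a type and less RNA per cell cannot be told apart.

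The intervals of most members were narrow. The 95% interval of the fold change lay within 2-fold in both directions for 30 of 34 members in the undisputed libraries, against 47.8% of all genes tested. By title codes it did so for 32 of 35, against 67.5%, and by description codes for 32 of 35, against 65.8%. The intervals that reached 2-fold were those of Slc16a3, Pfkm, Hk3 and Eno2 in the undisputed libraries and those of Hk3, Eno2 and Rpia in the other readings. Within 1.5-fold lay 17 of 34 (15.2% of all genes), 28 of 35 (38.9%) and 24 of 35 (37.4%). The members are on the whole well-counted genes, and the median standard error (SE) of their log2 fold change was 0.19, 0.14 and 0.13, against 0.32, 0.23 and 0.22 over all genes. The median log2 fold change (KO minus WT) over the members was -0.05, -0.04 and 0.02, against -0.0016, -0.0033 and -0.0085 over all genes tested. Negative fold changes were found for 22 of 34, 21 of 35 and 15 of 35 members, against 50.21%, 50.65% and 51.15% of all genes tested.

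**Figure D4:**
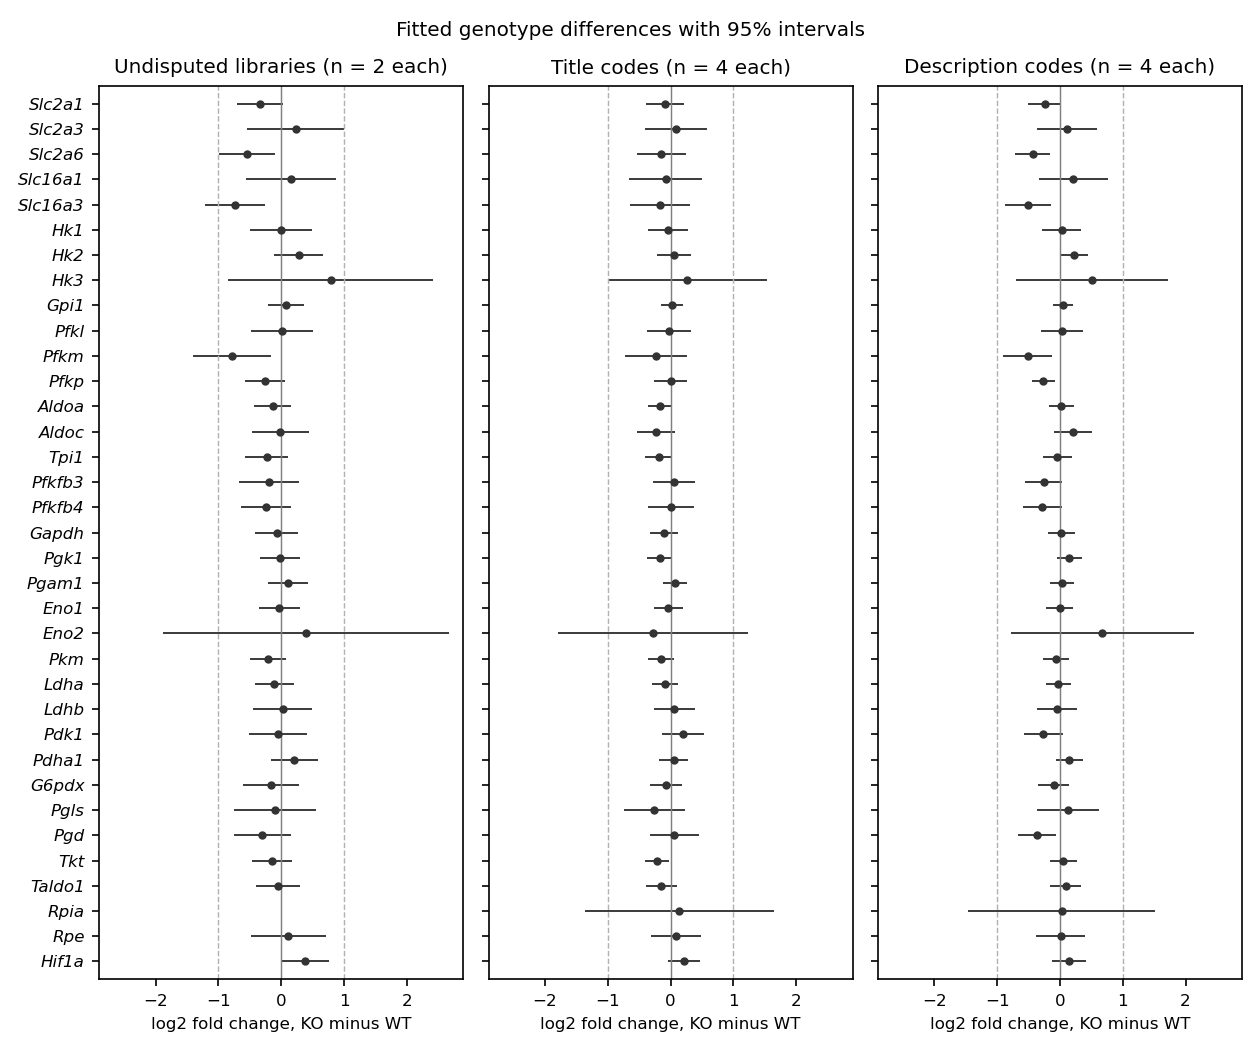
Fitted log2 fold changes, KO minus WT, of the 35 genes in 3 panels (undisputed libraries, title codes, description codes), with bars for 95% intervals, a solid line at 0 and dashed lines at 2-fold. Most intervals cross 0 and stay between the dashed lines; those of Hk3 and Eno2 are the widest in the undisputed panel, where Rpia was not tested.

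Among the carriers, Slc16a3 had the smallest p of the members in the undisputed libraries. Slc16a3 (ENSMUSG00000025161.15, chr11:120948480-120960868, plus strand) was at 67.3, 52.0, 62.1 and 63.6 CPM in RMN030 to RMN033 and 39.5, 58.2, 36.2 and 33.1 CPM in RMN036 to RMN039. Both KO libraries lay below both WT libraries, and of the 4 disputed libraries RMN036 alone lay near the KO pair. Its log2 fold change was -0.74 in the undisputed libraries (SE 0.22, edgeR adjusted p = 0.202), -0.17 by title codes (SE 0.22, adjusted p = 0.998) and -0.51 (SE 0.17, adjusted p = 0.175) by description codes. Slc2a6 (ENSMUSG00000036067.11, chr2:27021363-27027998, minus strand), which encodes GLUT6, a carrier of intracellular membranes, was at 119, 88.6, 87.6 and 92.2 CPM in RMN030 to RMN033 and 70.9, 70.1, 75.6 and 61.6 CPM in RMN036 to RMN039. Every earlier-run library lay above every later-run library, RMN030 standing highest. The difference was -0.55 on the log2 scale (SE 0.20, adjusted p = 0.329), -0.14 (SE 0.18, adjusted p = 0.998) and -0.44 (SE 0.13, adjusted p = 0.123) in the same order. Slc2a1 was at 201, 166, 183 and 209.6 CPM in RMN030 to RMN033 and 152, 192, 153 and 128 CPM in RMN036 to RMN039. RMN038 and RMN039 lay below RMN030 and RMN031, and the disputed libraries fell among either pair. The fitted log2 difference of Slc2a1 was -0.34 (SE 0.17, adjusted p = 0.496), -0.09 (SE 0.14, adjusted p = 0.998) and -0.24 (SE 0.12, adjusted p = 0.456). Slc16a1 and Slc2a3, with 12.1 to 34.0 and 8.51 to 15.9 CPM, overlapped between genotypes in each reading.

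The 250 bases before the start of 4 genes are printed for reference, for the pair of carriers with the smallest p above and for the lactate dehydrogenase pair, as isozymes of unlike level. They are RefSeq sequences of GRCm38.p6, on the gene's strand, and the capitals mark ACGTG and GCGTG, the core letters of the hypoxia response element, on either strand (CACGT and CACGC), where ACGTG and CACGT can overlap.
Slc2a6: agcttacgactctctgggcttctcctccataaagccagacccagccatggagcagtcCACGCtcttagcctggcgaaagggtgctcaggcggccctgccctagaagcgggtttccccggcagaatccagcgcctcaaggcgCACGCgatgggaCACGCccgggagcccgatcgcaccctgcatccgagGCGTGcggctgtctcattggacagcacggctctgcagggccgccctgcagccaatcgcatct
Slc16a3: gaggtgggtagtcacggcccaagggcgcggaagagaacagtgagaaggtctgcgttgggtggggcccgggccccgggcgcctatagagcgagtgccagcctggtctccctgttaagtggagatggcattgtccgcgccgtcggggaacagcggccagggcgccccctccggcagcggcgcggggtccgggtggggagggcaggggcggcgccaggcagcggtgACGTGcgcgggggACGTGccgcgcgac
Ldha: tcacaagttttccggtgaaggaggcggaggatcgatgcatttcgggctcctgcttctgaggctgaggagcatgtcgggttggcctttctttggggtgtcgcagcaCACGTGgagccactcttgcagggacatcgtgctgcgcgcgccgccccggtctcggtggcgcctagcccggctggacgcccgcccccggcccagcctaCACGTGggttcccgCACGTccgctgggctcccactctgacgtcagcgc
Ldhb: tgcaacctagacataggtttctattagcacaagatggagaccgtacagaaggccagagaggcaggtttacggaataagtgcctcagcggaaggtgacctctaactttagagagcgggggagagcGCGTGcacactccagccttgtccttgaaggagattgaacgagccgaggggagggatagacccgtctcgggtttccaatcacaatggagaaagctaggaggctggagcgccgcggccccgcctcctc
The windows are chr2:27027999-27028248 (minus strand) for Slc2a6, chr11:120948817-120949066 (plus) for Slc16a3, chr7:46845554-46845803 (plus, the first of the starts listed for this gene) for Ldha and chr6:142507958-142508207 (minus) for Ldhb. They held 4, 2, 5 and 1 matches. A second Ldha start in the table (window chr7:46846832-46847081) had 1 match, as many as Ldhb, so the count for Ldha depends on the start taken. A promoter was found for 34 members (none for Slc2a3), and 30 had a match in at least 1 promoter. Of genes with a promoter, 60.4% of those tested and 41.5% of all had such a match. All promoters of the table held a match in 38.6%, those of tested genes in 54.5% and those of the members in 79.2% (38 of 48). A match is a description of letters and says nothing of binding.

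In upper glycolysis, Pfkm, the muscle-type phosphofructokinase, had the largest fitted difference of the tested members above 10 CPM in the undisputed libraries. Pfkm (ENSMUSG00000033065.12, chr15:98092589-98132451, plus strand) was at 18.9, 23.5, 22.2 and 17.6 CPM in RMN030 to RMN033 and 16.6, 15.3, 12.1 and 11.8 CPM in RMN036 to RMN039. Every earlier-run library lay above every later-run library, and RMN038 and RMN039 were the lowest. It differed by -0.78 on the log2 scale (SE 0.28, adjusted p = 0.322), -0.23 (SE 0.23, adjusted p = 0.998) and -0.51 (SE 0.18, adjusted p = 0.214). The dominant Pfkp (ENSMUSG00000021196.12, chr13:6579768-6648777, minus strand) was at 327, 292, 308 and 348 CPM in RMN030 to RMN033 and 256, 274, 236 and 265 CPM in RMN036 to RMN039. The runs again did not overlap, and the fitted difference was -0.26 (SE 0.14, adjusted p = 0.546), -0.00088 (SE 0.12, adjusted p = 0.999) and -0.26 (SE 0.09, adjusted p = 0.172). Pfkl, the liver type, overlapped between genotypes in each reading. Hk2, the inducible hexokinase, was at 78.3, 79.8, 85.9 and 75.8 CPM in RMN030 to RMN033 and 84.7, 91.8, 103 and 83.0 CPM in RMN036 to RMN039. RMN038 was the highest, and the log2 fold change was 0.28 (SE 0.18), 0.05 (SE 0.12) and 0.22 (SE 0.10), with adjusted p = 0.627, 0.998 and 0.400. Gpi1, glucose 6-phosphate isomerase, varied least of all members, from 342 to 378 CPM, a ratio of 1.11 between the highest and the lowest library. Pfkfb4 was at 163, 120.2, 111 and 129 CPM in RMN030 to RMN033 and 94.9, 90.7, 119 and 114 CPM in RMN036 to RMN039, RMN030 being the highest, and Pfkfb3 was at 51.4 to 78.5 CPM.

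None of the enzymes from aldolase downwards was called in any reading. Aldoa was at 834, 706, 694 and 775 CPM in RMN030 to RMN033 and 814, 799, 679.8 and 678 CPM in RMN036 to RMN039. Tpi1, triose phosphate isomerase, was at 264, 212, 225 and 221 CPM in RMN030 to RMN033 and 247, 229, 202 and 192 CPM in RMN036 to RMN039. In both genes RMN038 and RMN039 were the lowest of the 8 libraries and RMN030 the highest. The log2 fold change of Aldoa was -0.14 (SE 0.14), -0.16 (SE 0.09) and 0.02 (SE 0.09), with adjusted p = 0.792, 0.998 and 0.965. That of Tpi1 was -0.23 (SE 0.16), -0.19 (SE 0.10) and -0.05 (SE 0.11), with adjusted p = 0.650, 0.998 and 0.921. Pgk1 (ENSMUSG00000062070.11) was at 158, 165, 149.6 and 152 CPM in RMN030 to RMN033 and 175, 188, 152 and 158 CPM in RMN036 to RMN039. By title codes all KO libraries lay below all WT libraries, but the sign of the fitted difference was not the same in all readings. The log2 fold change was -0.02 (SE 0.14, adjusted p = 0.985), -0.17 (SE 0.09, adjusted p = 0.998; -0.15 with the copies' counts added) and 0.15 (SE 0.09, adjusted p = 0.571). Pkm was at 1067, 917, 942 and 1048 CPM in RMN030 to RMN033 and 1020.1, 1029.6, 827 and 836 CPM in RMN036 to RMN039. RMN038 and RMN039, the undisputed KO libraries, were the lowest of the 8, and the log2 fold change was -0.21 (SE 0.13, adjusted p = 0.627), -0.15 (SE 0.09, adjusted p = 0.998) and -0.06 (SE 0.10, adjusted p = 0.884). Eno1 was at 492, 402, 468 and 533 CPM in RMN030 to RMN033 and 502, 489, 405 and 446 CPM in RMN036 to RMN039, and Ldha at 677, 567, 659.7 and 666 CPM in RMN030 to RMN033 and 685, 646, 555 and 565 CPM in RMN036 to RMN039. RMN031, RMN038 and RMN039 were the lowest 3 in both of these. Eno2, at 0.158 to 1.28 CPM, was too low for a useful estimate, and the 95% interval of its log2 fold change ran from -1.89 to 2.67 in the undisputed libraries. Gapdh, often used as a reference gene, ranged from 429 to 558 CPM, and its log2 fold change was -0.07 (SE 0.16), -0.10 (SE 0.10) and 0.02 (SE 0.10). Pdha1, the E1 alpha subunit of pyruvate dehydrogenase, was at 74.5 to 94.5 CPM and Pdk1 at 31.5 to 55.4 CPM.

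In the pentose phosphate pathway, Tkt was the member with the smallest p by title codes. Tkt (ENSMUSG00000021957.6, chr14:30548359-30574720, plus strand) was at 377, 317, 303 and 309 CPM in RMN030 to RMN033 and 346, 366, 298 and 309 CPM in RMN036 to RMN039. By title codes, all KO libraries (298 to 309 CPM) lay below all WT libraries (317 to 377 CPM), and the fitted log2 difference was -0.21 (SE 0.09, unadjusted p = 0.0352, adjusted p = 0.998). Between the undisputed libraries it was -0.15 (SE 0.14, adjusted p = 0.791), and 0.05 (SE 0.10, adjusted p = 0.902) by description codes. Pgd, the 6-phosphogluconate dehydrogenase that makes NADPH, was at 52.4, 64.4, 58.7 and 68.5 CPM in RMN030 to RMN033 and 37.2, 54.7, 42.0 and 49.8 CPM in RMN036 to RMN039. RMN036 and RMN038 were the lowest, and the fitted log2 difference was -0.30 (SE 0.21, adjusted p = 0.658), 0.06 (SE 0.18, adjusted p = 0.998) and -0.37 (SE 0.14, adjusted p = 0.262). G6pdx, glucose 6-phosphate dehydrogenase, the entry enzyme, was at 42.0 to 53.7 CPM, Taldo1 at 84.7 to 118 CPM, Pgls at 18.5 to 35.2 CPM and Rpe at 17.9 to 27.4 CPM. Rpia did not exceed 1.498 CPM. Hif1a was at 111, 155, 180.3 and 155 CPM in RMN030 to RMN033 and 166, 143, 166 and 167 CPM in RMN036 to RMN039. RMN030 was the lowest, and the log2 fold change was 0.38 (SE 0.17, adjusted p = 0.451), 0.21 (SE 0.12, adjusted p = 0.998) and 0.14 (SE 0.12, adjusted p = 0.719).

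**Figure D5:**
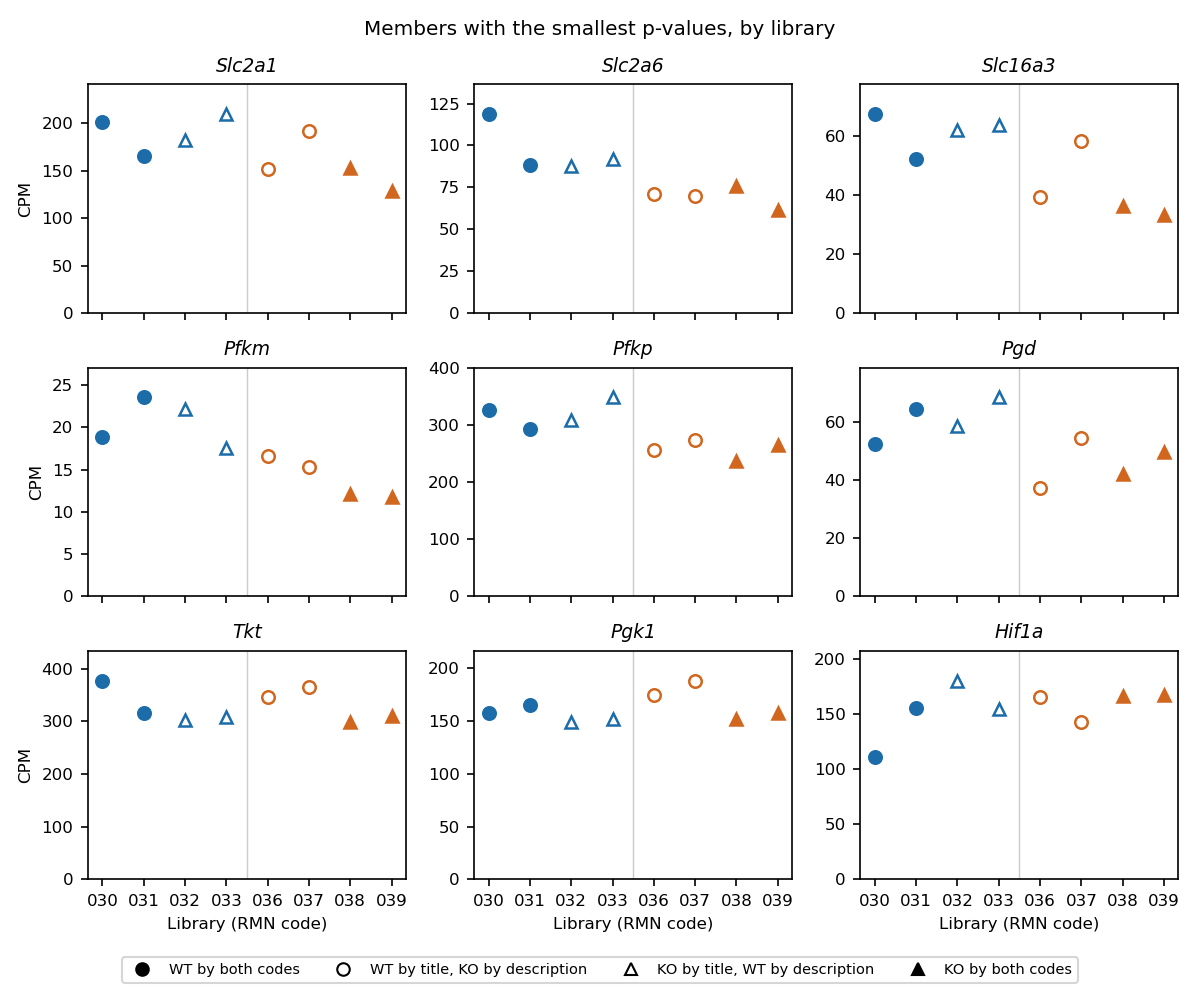
CPM by library (x axis, library code; y axis from 0) of 9 members with small p-values, with circles for WT and triangles for KO by title, filled where the description gives the same genotype, and coloured by code run. Slc2a6, Pfkm and Pfkp are higher in all libraries of the earlier run, and Tkt and Pgk1 are lower in all triangles than in all circles.

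Groups that do not overlap were counted against the same count over all genes tested. In the undisputed libraries, both KO libraries lay below both WT libraries for 16 members (25.2% of all genes) and above them for 4, Hk2, Hk3, Pdha1 and Hif1a (16.9%), where 42.1% of all genes did not overlap in either direction. By title codes, only Pgk1 and Tkt were lower in all KO libraries (1.53% of all genes) and 0 were higher (1.41%, or 2.94% in either direction). By description codes, Slc2a6, Pfkm, Pfkp and Pdk1 were lower in all KO libraries (5.09%) and 0 were higher (3.74%, or 8.82% in either direction). The summed CPM of the 35 genes was 6738, 5891, 6174 and 6605 in RMN030 to RMN033 and 6409, 6427, 5618 and 5750 in RMN036 to RMN039. RMN031, RMN038 and RMN039 had the lowest sums, and these 3 libraries also had the lowest summed keratinocyte markers (11976, 12300.5 and 12418 CPM, against 13733 to 15400 in the others). The part of keratinocyte RNA in the members' levels was not tested. RMN030 was the highest library for 10 members and RMN039 the lowest for 8.

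Leaving out 1 library of the undisputed reading leaves a lone library in 1 group, so only fold changes are given for it. Without RMN031, the log2 fold change was -0.94 for Slc16a3, -0.77 for Slc2a6, -0.64 for Pfkm, -0.50 for Slc2a1 and 0.61 for Hif1a. Without RMN030, the values were -0.53, -0.31, -0.92, -0.17 and 0.16 in the same order. The 7 of 11 T cell markers called lower in KO in the undisputed libraries are high in RMN030 and RMN031, and without both of these the description reading again called 0 members. Without RMN037, the description reading called Slc16a3 (log2 fold change -0.71, edgeR adjusted p = 0.0316). With every library kept, this reading called 0 members and 2.02% of all genes. No share over all genes is given here for the altered fits.

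Since the title codes place both genotypes in both runs, the title contrast was also fitted within each run. In the earlier run 0 of 35 members were called (0.186% of 16146 genes were), and in the later run 0 of 35 (0%). For the 5 members with the smallest p by title codes, which were chosen on these same libraries, the log2 fold changes in the earlier and later run are given as a description: -0.23 and -0.20 for Tkt, -0.14 and -0.25 for Tpi1, -0.12 and -0.22 for Aldoa, -0.15 and -0.20 for Pgk1, and 0.29 and 0.14 for Hif1a. A test of the difference between runs called 0 members and 0.0186% of all genes (3 genes). At an unadjusted p under 0.05, which 7.93% of all genes passed, it gave 1 member, Pfkfb4, with -0.29 (SE 0.16) in the earlier and 0.35 (SE 0.17) in the later run (adjusted p = 0.525). edgeR gave 0 members in the earlier run and 1 (Pkm) in the later run at an unadjusted p under 0.05, where 6.71% and 7.83% of all genes passed.

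Of 7 lists of related genes, none had a called gene in the undisputed libraries or by title codes. They covered the other isozymes of these pathways (23 tested of 35 listed in the undisputed libraries), pyruvate oxidation (12 of 12), gluconeogenesis and glycogen (12 of 15), regulators of HIF (8 of 9), HIF targets outside glycolysis (17 of 18), glucose sensing and growth control (12 of 14) and NADPH use with antioxidant genes (12 of 12). By description codes, 4 genes of these lists were called. Sesn2, a stress-induced inhibitor of mTORC1, was at 123, 106, 113 and 111 CPM in RMN030 to RMN033 and 161, 185, 161 and 149 CPM in RMN036 to RMN039. All later-run libraries lay above all earlier-run libraries, and the log2 fold change by description codes was 0.57 (SE 0.10, adjusted p = 0.00768), against 0.48 (SE 0.16, adjusted p = 0.264) in the undisputed libraries and -0.11 (SE 0.19, adjusted p = 0.998) by title codes. Txnrd1, the cytosolic thioredoxin reductase that uses NADPH, was at 319, 362, 295 and 251 CPM in RMN030 to RMN033 and 400.1, 415, 406 and 407 CPM in RMN036 to RMN039, again without overlap (0.45, SE 0.10, adjusted p = 0.0443). In the undisputed libraries it differed by 0.30 (SE 0.13, adjusted p = 0.426) and by title codes by -0.14 (SE 0.16, adjusted p = 0.998). Txnip, which restrains glucose uptake and binds thioredoxin, was at 232, 222, 272 and 255 CPM in RMN030 to RMN033 and 183, 179.9, 189.6 and 164 CPM in RMN036 to RMN039 and was lower in the later run (-0.41, SE 0.09, adjusted p = 0.0321). The undisputed libraries gave -0.32 (SE 0.15, adjusted p = 0.451) and the title codes 0.10 (SE 0.15, adjusted p = 0.998). Slc2a12, the glucose carrier GLUT12, was at 28.1, 33.1, 41.8 and 41.3 CPM in RMN030 to RMN033 and 24.3, 17.3, 14.1 and 19.5 CPM in RMN036 to RMN039 and was lower as well (-0.90, SE 0.19, adjusted p = 0.0274). The undisputed libraries gave -0.83 (SE 0.27, adjusted p = 0.253) and the title codes 0.17 (SE 0.31, adjusted p = 0.998). Over all genes, 1.43% were called higher and 0.595% lower in this reading, in which genotype and code run cannot be told apart. In the same reading 5 of 6 red blood cell markers, 3 of 6 macrophage markers, 4 of 7 fibroblast and endothelial markers and 4 of 5 mast cell markers tested were called higher, and their part in these results was not tested. The calls of Slc2a12, Txnip and Txnrd1 were lost without several single libraries (edgeR adjusted p up to 0.0980, 0.0993 and 0.128), and that of Sesn2 held without each library.

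Exons of 16 members overlap another annotated gene, 9 of them over at least 300 bases, and the strand setting of the counting is not given in the sources used here. Reads of Pgls and Fam129c (776 shared bases, same strand), Pfkp and Pitrm1 (748), Gpi1 and Gm26762 (741), Pdha1 and Map3k15 (603), Rpe and Kansl1l (558) and G6pdx and Ikbkg (418) may therefore be split or dropped. The same holds for Pfkm and Gm26513 (341) and for Hif1a and Gm15283 (330). Pkm shares 767 bases with Gm49759, for which no counts were found in any library.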

How the data were processed

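Bulk RNA sequencing of 8 libraries was analysed from one table of raw counts per Ensembl gene that the authors deposited, made with STAR 2.5.2b and featureCounts 1.5.0 on GRCm38 (mm10), per the submitters' processing notes. The sources used here do not give the annotation release, the strand setting or how mates were handled. Totals ranged from 11051402 to 18966195 counts, 0 columns were left unused, and 60.1% of counts from 1 to 20 were even, so mates may have been counted separately. Symbols came from a gene name table (25080 matched, 167 not), coordinates and exon lengths from GENCODE M21, promoters from RefSeq GRCm38.p6, and copies from BLAST+ 2.17.0.

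The members and lists were chosen with earlier results of these data known. Fits used edgeR 4.0.16 in R 4.3.3 (filterByExpr, TMM, robust quasi-likelihood fits, two-sided F-tests, Benjamini-Hochberg over all genes), tested on simulated data. SE derives from the F statistic. Values in every library were given for the 5 smallest p in each fit and the leading isozymes, and other pathway genes were named when called. Alternatives were RLE size factors, no filter, DESeq2 1.42.0, each library left out, replicate block, and code run or title genotype as covariate. Added after seeing the data were copies' counts, coding transcript lengths, families with genes outside the list, and fits without RMN030 and RMN031. Library precision is limited by 2 or 4 libraries a group. A few items are not reported here.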

Additional observations from a re-analysis of the deposited data

Results flagged for a closer look

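Within groups of 4 libraries, 14 of 140 member groups had a library far from the other 3 (a gap above the 95% critical value of Dixon's test). For independent groups of normal values, chance gives about 1 in 20, or 7. The groups are not independent, since both readings use the same libraries, and no rate over all genes was counted. The 14 are therefore not read as an excess. By title codes, WT library RMN031 was apart for Aldoc (46.5 CPM, others 51.9 to 52.6) and Eno1 (402 CPM, others 489 to 502). KO library RMN033 was apart for Slc16a1 (25.0 CPM, others 18.6 to 19.3) and Aldoa (775 CPM, others 678 to 694). KO library RMN038 was apart for Hk3 (3.05 CPM, others 1.54 to 1.78), Pfkl (47.9 CPM, others 72.0 to 76.2) and Pfkfb3 (51.4 CPM, others 76.0 to 78.5).

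By description codes, WT library RMN030 was apart for Slc2a6 (119 CPM, others 87.6 to 92.2) and Pgls (35.2 CPM, others 18.5 to 20.95), and WT library RMN031 for Pfkfb3 (72.4 CPM, others 78.0 to 78.5) and Ldha (567 CPM, others 659.7 to 677). WT library RMN033 was apart for Pdk1 (55.4 CPM, others 38.7 to 40.4), and KO library RMN037 for Slc16a1 (34.0 CPM, others 16.9 to 19.3) and Hif1a (143 CPM, others 166 to 167). RMN038 was low in the phosphofructokinase Pfkl and in the regulator Pfkfb3 and high in Hk3. RMN037 had the highest level of the lactate and pyruvate carrier Slc16a1 of all 8 libraries.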

How the results depend on the processing

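Called genes in the undisputed libraries numbered 117, and 440 with no filter, 293 with DESeq2 and 263 to 629 with each library left out; called members were 0, and 0 to 5 with each library left out. By title codes, 0 genes became 1 with no filter and 24 with DESeq2, and members stayed at 0. By description codes, 296 genes became 704 with DESeq2, 174 with the replicate block and 140 to 219 with each library left out, and members went from 0 to 1 (Slc2a6) with DESeq2 and 0 to 1 (Slc16a3) with a library left out. The causes were not tested. Of 185 alternative values for 15 member fold changes, 179 kept sign and side of the threshold, 6 passed the threshold only in the alternative and 0 reversed. Replicate numbers did not pair the libraries (correlations of deviations 0.05 to 0.10 by title and -0.0068 to 0.03 by description). Under the block Slc2a12, Txnip and Txnrd1 lost their calls (adjusted p = 0.0745, 0.0693 and 0.0705). No paired analysis was possible in the undisputed libraries because they share no replicate number. Mean isozyme shares by counts were 60.2% for Hk2, 77.1% for Pfkp, 94.1% for Aldoa, 62.7% for Pfkfb4 and 94.8% for Ldha. By longest coding transcript they were 55.9% for Slc2a1, 53.8% for Hk2, 74.1% for Pfkp, 96.6% for Aldoa and 92.9% for Ldha. Low counts leave Rpia, Eno2 and Hk3 without a useful interval.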
